A study of Bos taurus with 24 samples.

Results

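Early bovine blastocysts that had been matured and cultured with fetal bovine serum (FBS) were compared directly with early blastocysts produced without serum, gene by gene. The comparison held all 16 in vitro produced embryos of the 24 in the series, 8 per condition, with 1 library per embryo and the embryo as the replicate. It held every gene with at least 15 exon counts in every embryo of at least 1 of the conditions, which was 7181 of the 24621 genes counted. Serum embryos (codes starting with B) were 3 male and 5 female, and serum-free embryos (codes starting with C) were 5 male and 3 female. Serum embryos came from oocytes matured in TCM-199 with 20% FBS, glutamine and pyruvate, and were grown in synthetic oviduct fluid (SOF) with 5% FBS. Serum-free embryos came from oocytes matured in TCM-199 with 20 ng/mL epidermal growth factor (EGF), and were grown in SOF with 0.4% bovine serum albumin and a supplement of insulin and transferrin at 5 µg/mL each with selenium at 5 ng/mL. Both conditions shared gentamycin during maturation, slaughterhouse ovaries of Holstein cows, thawed semen of a single Holstein bull, low-oxygen culture under oil and collection at day 6 to 7 after insemination. Serum, glutamine and pyruvate, EGF, albumin and the insulin-transferrin-selenium supplement were therefore changed together and cannot be told apart. The labels do not say which in vitro experiment each embryo came from. The 8 early blastocysts flushed from superovulated Holstein cows inseminated with the same bull are given as a reference level only.

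The early blastocyst is the stage at which the outer cells of the embryo become the first epithelium, the trophectoderm. These cells build keratin filaments, seal their borders with tight junctions and pump fluid into the blastocoel, while the enclosed cells form the inner cell mass. Embryos in culture can take up sterols and fatty acids from lipoproteins and albumin-bound lipid in the medium, or make them from acetyl-CoA. The enzymes of sterol synthesis are transcribed under SREBP2, which is held inactive when membrane cholesterol is high.

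Exon counts per embryo were between 3253051 and 9000447 with serum and between 3350180 and 5756202 without serum. At least 1 count was present for 13175 ± 1120 genes in serum embryos and for 13673 ± 491 genes in serum-free embryos (mean ± SD, n = 8 each), and this difference stayed within the spread of the embryos (p = 0.267, exact permutation test, two-sided). DDX3Y, a Y-linked gene, had at most 2 counts in female embryos and from 101 to 902 in males. No pair of the 16 embryos differed by as little as sampling noise. The variation between embryos of a condition, as the biological coefficient of variation, was 0.516 with serum, 0.37 without serum and 0.306 in vivo. Embryo B2 lay farthest from the mean of the serum group and C7 farthest from the mean of the serum-free group, and 83 of 121 called genes considered by name were also called without both. Of the lineage genes, POU5F1 was at 148 ± 53.8 CPM with serum (CPM are counts scaled to the total of each embryo, as defined with the processing) and 171 ± 40.2 CPM without, and the keratins and GATA3 described below were counted in every embryo, while the hypoblast genes GATA4 and SOX17 were at 0 in at least 1 embryo and were not tested.

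A gene was called when its adjusted p-value was under 0.05 and its fold change at least 2. Of the 7181 genes tested, 640 were called, which is 8.91%. Expression was higher in serum-free embryos for 385 genes (5.36%) and higher in serum embryos for 255 genes (3.55%). With no limit on the fold, 1171 genes had an adjusted p under 0.05 (16.3%), and 2374 an unadjusted p under 0.05 (33.1%). The embryos of both conditions did not overlap for 167 genes (2.33%), of which 113 were called (1.57%), 83 higher without serum (1.16%) and 30 higher with serum (0.418%). A fold change of at least 4 was reached by 112 genes higher without serum (1.56%) and 57 genes higher with serum (0.794%), and a fold change of at least 8 by 21 (0.292%) and 17 (0.237%), and of at least 16 by 6 (0.0836%) and 4 (0.0557%). Of the genes tested, 5642 passed the count limit in both conditions, and 195 and 164 of these were called higher without and with serum. Another 1065 genes passed only through the serum-free embryos (190 called higher without serum and 2 higher with serum) and 474 only through the serum embryos (0 and 89). For these calls, apart from the 2, the direction follows from how they passed. Throughout, log2 fold changes are serum-free over serum, so that a positive value is higher without serum. The median over all genes tested was -0.02. The count of 640 was 393 without C7, where 202 genes were higher without serum, and 364 without B2 and C7 together, and without B7 the genes higher without serum were 250.

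**Figure D1:**
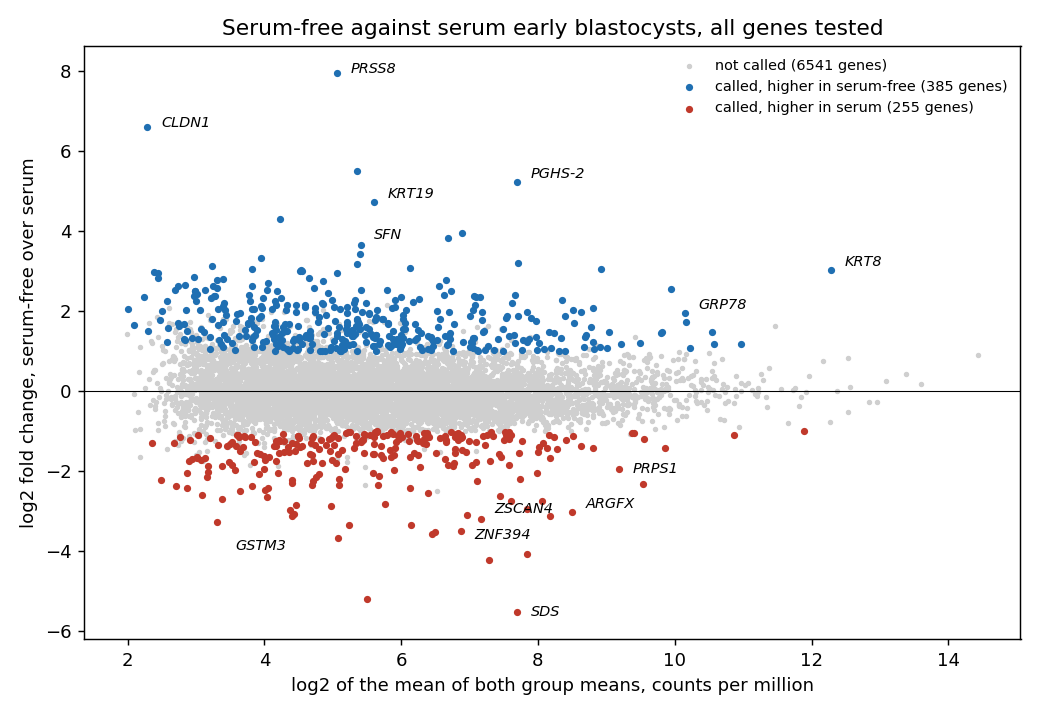
Each point is a gene, placed by the log2 of its mean expression (the mean of both group means, in CPM) on the horizontal axis and by its log2 fold change, serum-free over serum, on the vertical axis, with called genes in blue (385 higher without serum) and red (255 higher with serum). PRSS8, CLDN1 and the keratin KRT19 lie at the top and SDS at the bottom, while KRT8 is called among the most highly counted genes.

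Of 31 trophectoderm genes found in the count table, 20 were tested, 10 were called higher without serum, where 5.36% of all genes were, and 0 higher with serum. The median log2 fold change was 1.56 over the 20 against -0.02 over all genes, and 16 of the 20 were above 0. The 10 were the keratins KRT8, KRT18 and KRT19, the transcription factors GATA2 and GATA3, the tight junction genes CLDN4 and ZO3 (TJP3), the endocytic adaptor DAB2, the 14-3-3 sigma gene SFN and the prostaglandin synthase PGHS-2 (PTGS2). Of the 20, 13 passed the count limit in both conditions, among them the called genes KRT8, KRT18, ZO3 and DAB2. The called genes KRT19, GATA2, GATA3, CLDN4, SFN and PGHS-2 passed only through the serum-free embryos, so their direction follows from the limit. The summed level of the matched list was between 1401 and 7229 CPM in serum embryos and between 7512 and 32850 CPM in serum-free embryos. In single embryos, fewer trophectoderm cells and less RNA of these genes per cell cannot be told apart. All 10 calls remained without B2 and C7 together.

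KRT8, which pairs with KRT18 in the filaments of simple epithelia, was lowest at 39 CPM, had a median of 745 CPM and was highest at 4041 CPM in serum embryos, against 3788, 6814 and 22580 CPM in serum-free embryos. Only serum embryo B8 reached the range of the serum-free embryos, and B2 and B7, at 39 and 69.9 CPM, were the lowest of the 16. The log2 fold change was 3.04 ± 0.71 (SE), an 8.24-fold difference (adjusted p = 0.0111). KRT18 had a low, median and high of 45.9, 180 and 878 CPM with serum and 860, 990 and 4800 CPM without. Again B8 alone entered the serum-free range, and the log2 fold change was 2.56 ± 0.58 (adjusted p = 0.00982). KRT19, the third keratin of this epithelium, did not overlap between conditions. Its level was between 2.00 and 6.57 CPM with serum and between 12.5 and 522 CPM without, a log2 fold change of 4.72 ± 0.76 (adjusted p = 0.00236), and 3.14 without B2 and C7. In vivo, KRT8 was between 5776 and 11554 CPM and KRT19 between 14.7 and 70 CPM, within the range of the serum-free embryos for both genes.

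GATA3, a transcription factor of trophectoderm identity, was between 0.713 and 56.9 CPM in serum embryos (median 21.2) and between 61.7 and 151 CPM in serum-free embryos (median 94.9). The conditions did not overlap, and the log2 fold change was 2.10 ± 0.54 (adjusted p = 0.0162). Its relative GATA2 had medians of 7.07 and 30.5 CPM, with serum embryos B1 and B4 inside the serum-free range and a log2 fold change of 1.69 ± 0.44 (adjusted p = 0.0168). The claudin CLDN4, a sealing protein of tight junctions, was between 2.85 and 374 CPM with serum and between 360 and 822 CPM without, and only B6 lay within the serum-free range. The scaffold gene ZO3 had medians of 13.9 and 55.9 CPM and a log2 fold change of 2.05 ± 0.37 (adjusted p = 0.00333). The related scaffolds ZO1 and ZO2 were not called, with log2 fold changes of 0.45 and 0.31. PGHS-2, the inducible cyclooxygenase, had a low, median and high of 0.567, 5.75 and 41.3 CPM with serum and 11.3, 289 and 1021 CPM without, a log2 fold change of 5.23 ± 0.84 (adjusted p = 0.00236). The serum-free embryo C1, at 11.3 CPM, stood far below the other serum-free embryos, which started at 147 CPM, and in vivo embryos were between 27 and 133 CPM. As stated above, the direction of GATA3, GATA2, CLDN4 and PGHS-2 follows from the count limit.

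Other trophectoderm genes differed less or the other way. The water channel AQP3 was higher with serum, at 476 ± 210 CPM against 237 ± 80.9 CPM, with an adjusted p of 0.0148 but a fold of 1.99, just under the limit. Without C7 it was called. TFAP2C and TEAD4, transcription factors upstream of the lineage, were not called, with log2 fold changes of -0.24 and -0.30. The junction gene OCLN had an adjusted p of 0.0207 at a log2 fold change of 0.94. CDX2, EOMES and ELF5 did not pass the count limit in either condition.

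**Figure D2:**
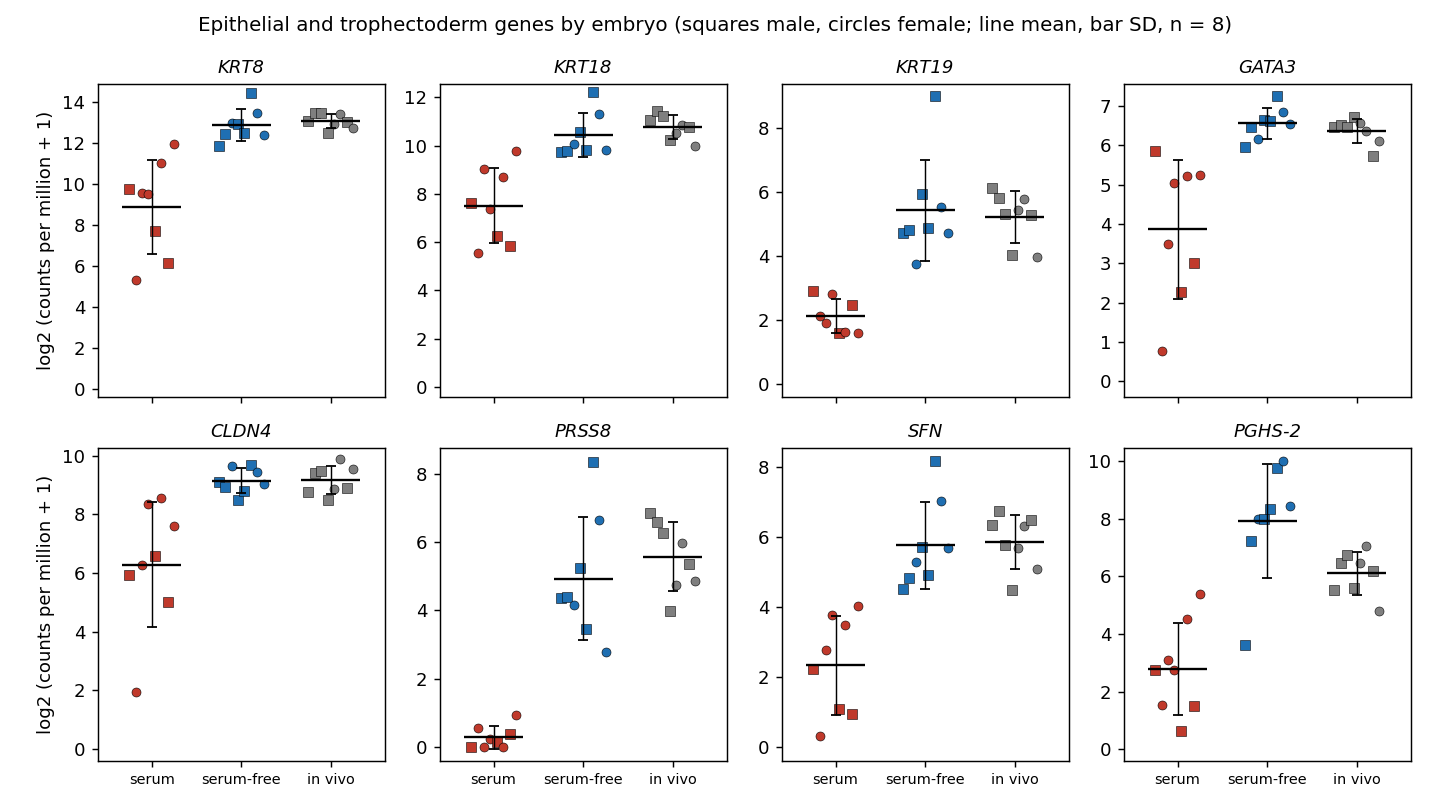
Expression of 8 epithelial genes as log2(CPM + 1) (vertical axis) in each serum, serum-free and in vivo embryo, with squares for males, circles for females, a line at the mean and a bar of 1 SD (n = 8). Serum embryos spread widely for KRT8, KRT18, GATA3 and CLDN4, the culture conditions do not overlap for KRT19, GATA3, PRSS8 and SFN, and serum-free embryo C7 is the highest for KRT8, KRT18, KRT19, PRSS8 and SFN.

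The epithelial protease PRSS8 showed the largest fold change of all genes named here. Prostasin, its product, is a membrane-anchored serine protease that acts on sodium channels and tight junctions. PRSS8 was at most 0.909 CPM in serum embryos, with 0 counts in B1, B3 and B6, and between 5.85 and 323 CPM in serum-free embryos. The conditions did not overlap and the log2 fold change was 7.96 ± 1.01 (adjusted p = 0.000397), a fitted value that depends on the near absence of counts with serum. In vivo embryos were between 14.8 and 114 CPM. Of the 19 matched genes of apical membranes and epithelial proteases, 10 were tested. Of these, 5 were called higher without serum, where 5.36% of all genes were, and 0 higher with serum. Of the 10, 6 passed the count limit in both conditions. PRSS8 and SPINT1 passed only through the serum-free embryos, so their direction follows from the limit. The inhibitors of such proteases SPINT1 and SPINT2 had log2 fold changes of 3.32 ± 0.75 (adjusted p = 0.00931) and 1.04 ± 0.29 (adjusted p = 0.0248). SPINT2 lost its call in 6 of the 16 fits with 1 embryo left out (adjusted p up to 0.0565). The membrane-actin linker EZR was at 480 ± 341 CPM with serum and 1322 ± 490 CPM without (adjusted p = 0.0198), and the adhesion molecule EPCAM at 106 ± 57.3 and 372 ± 153 CPM (adjusted p = 0.00298), with no overlap for EPCAM. The polarity genes PARD3, PRKCZ, PRKCI and MPP5 (PALS1) were not called.

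SFN, which encodes a 14-3-3 protein of epithelia, was between 0.238 and 15.1 CPM with serum (median 4.74) and between 21.6 and 283 CPM without (median 44.1). The log2 fold change was 3.67 ± 0.71 (adjusted p = 0.0048), with no overlap. Among genes with a mean of at least 10 CPM in the higher condition, the others of largest change higher without serum whose conditions did not overlap were SLC28A3, CRIP1, ANXA1, ACADS, LAMA1, PLLP and CNN2. SLC28A3, a sodium-coupled nucleoside transporter, was at 1.79 ± 1.70 CPM with serum and 35.8 ± 28.3 CPM without. The LIM protein gene CRIP1 was at 13.9 ± 11.9 and 192 ± 230 CPM, and annexin A1 (ANXA1) at 41.8 ± 55.1 and 378 ± 248 CPM. ANXA1 was at 0.113, 0.610 and 0.951 CPM in B5, B7 and B2 and at least 62.1 CPM in B4, B6 and B8. LAMA1, a chain of the basement membrane protein laminin, differed from the rest in its in vivo level. It was between 0 and 15.2 CPM with serum, between 18.7 and 94.9 CPM without serum, and between 0 and 12.1 CPM in vivo. All 20 genes named for the size of their change, 10 in each direction, were called in each of the 16 fits with 1 embryo left out, without B2 and C7 together, and with sex as a covariate. All 10 that were higher without serum, and 5 of the 10 higher with serum, entered the test only through the condition in which they were higher, so their direction was set by the count limit.

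Of 20 matched genes of the actin cytoskeleton and of serum response factor, the transcription factor that drives many actin genes, 12 were tested. Of these, 5 were called higher without serum, where 5.36% of all genes were, and 0 higher with serum. The calponins CNN2 (log2 fold change 2.84 ± 0.67) and TAGLN2 (1.49 ± 0.35), the light chain MYL6 (1.02 ± 0.28), the crosslinker FLNA (1.92 ± 0.59) and the actin-binding CALD1 (1.15 ± 0.29) were called. All 12 tested members had a positive log2 fold change. Of the 12, 9 passed the count limit in both conditions. CNN2 and FLNA passed only through the serum-free embryos, so their direction follows from the limit. Without B2 and C7, 2 of the list were called, and MYL6 was called in 7 of the 16 fits with 1 embryo left out. Of 19 matched immediate early genes, which serum induces within minutes in resting cells, 8 were tested. Of these, 0 were called higher without serum and 2 higher with serum, where 3.55% of all genes were. Of the 8, 7 passed the count limit in both conditions. EGR1 passed only through the serum embryos, so its direction follows from the limit. EGR1 was between 19.5 and 108 CPM with serum (median 33) and between 1.01 and 23.3 CPM without (median 16), a log2 fold change of -1.44 ± 0.44 (adjusted p = 0.0343). DUSP1, a phosphatase that shuts off MAP kinases, had medians of 62.3 and 31.9 CPM and a log2 fold change of -1.36 ± 0.42 (adjusted p = 0.0349). EGR1 was called in 11 and DUSP1 in 10 of the 16 fits with 1 embryo left out, and DUSP1 was not called with sex as a covariate (adjusted p = 0.0611). Of the Hippo pathway and its YAP targets, 8 were tested of 18 matched. The transcription factor TEAD3 and the growth factor TGFB2 were called higher without serum and the kinase LATS2 higher with serum, TEAD3 in 8 and LATS2 in 4 of these 16 fits. TGFB2 passed the count limit only through the serum-free embryos and LATS2 only through the serum embryos, so their direction follows from the limit.

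Of 20 matched enzymes of cholesterol synthesis, 15 were tested, and all 15 passed the count limit in both conditions. Of these, 3 were called higher without serum, where 5.36% of all genes were, and 0 higher with serum. The log2 fold changes were above 0 for 14, with a median of 0.87. HMGCS1, which makes HMG-CoA at the entrance of the pathway, had a low, median and high of 31.4, 59.3 and 134 CPM with serum and 38.3, 121 and 1454 CPM without. The serum-free values were uneven. C7 was at 1454, C4 at 424 and C8 at 286 CPM, while C1, C3, C6 and C10 lay between 38.3 and 107 CPM, inside the serum range. The log2 fold change was 2.21 ± 0.64 (adjusted p = 0.0259). IDI1, the isomerase that supplies the isoprenoid building block, had medians of 13.5 and 49.4 CPM and a log2 fold change of 2.20 ± 0.58 (adjusted p = 0.0183), with C7 at 320 CPM and the other serum-free embryos between 13.4 and 59.6 CPM. The squalene epoxidase SQLE had medians of 38.3 and 63.4 CPM and a log2 fold change of 1.19 ± 0.37 (adjusted p = 0.0358). FDPS, the farnesyl diphosphate synthase, had an adjusted p of 0.0406 at a log2 fold change of 0.95, under the fold limit.

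The sterol calls turned on embryo C7. Without it none of the 3 was called, HMGCS1 having a log2 fold change of 1.17 (adjusted p = 0.105), IDI1 of 1.21 (adjusted p = 0.0635) and SQLE of 0.68 (adjusted p = 0.119). HMGCS1 was also not called without B7 or with sex as a covariate, where it was 0.0782. In vivo embryos were at 44.0 CPM for HMGCS1, 18.3 CPM for IDI1 and 36.5 CPM for SQLE, nearer the serum mean than the serum-free mean for all 3 genes. Of 9 tested genes of sterol sensing, uptake and export among 17 matched, 0 were called in either direction, against 8.91% of all genes tested.

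Of 21 matched genes of fatty acid synthesis and lipid storage, 15 were tested. Of these, 5 were called higher without serum, where 5.36% of all genes were, and 0 higher with serum. The log2 fold changes of 11 of the 15 were above 0. Of the 15, 10 passed the count limit in both conditions. FASN, SCD and FADS1 passed only through the serum-free embryos, so their direction follows from the limit. ACLY, which makes cytosolic acetyl-CoA from citrate, was at 308 ± 135 CPM with serum and 652 ± 271 CPM without (log2 fold change 1.11 ± 0.29, adjusted p = 0.0194). It was not called without B2 or without C7 (adjusted p up to 0.0503 over the fits with 1 embryo left out). The fatty acid synthase FASN was between 0.238 and 25.8 CPM with serum (median 15.9) and between 31 and 95.7 CPM without (median 55.2), with no overlap and a log2 fold change of 2.11 ± 0.49 (adjusted p = 0.011). The desaturases SCD and FADS1 had log2 fold changes of 2.26 ± 0.60 (adjusted p = 0.0191) and 2.72 ± 0.62 (adjusted p = 0.00982). SCD had medians of 3.86 and 25.4 CPM, and FADS1 of 4.46 and 18.5 CPM, with C1 at 5.11 CPM inside the serum range for FADS1. Without B2 and C7, 3 of the list were called and SCD had an adjusted p of 0.0581. M6PRBP1 (PLIN3), a coat protein of lipid droplets, was at 92.8 ± 60.8 and 268 ± 96.4 CPM (adjusted p = 0.0141). In vivo means of FASN, SCD and FADS1 were 30.5, 16.8 and 5.22 CPM, all below the serum-free means of 59.6, 29.4 and 28.9 CPM.

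Of 20 matched genes of fatty acid beta-oxidation, 15 were tested. Of these, 2 were called higher without serum, where 5.36% of all genes were, and 0 higher with serum. Of the 15, 14 passed the count limit in both conditions, and ACADS only through the serum-free embryos. ACADS, the short-chain acyl-CoA dehydrogenase, did not overlap between conditions. It was between 0 and 6.51 CPM with serum and between 11.5 and 31.7 CPM without, a log2 fold change of 3.13 ± 0.63 (adjusted p = 0.00618). PECI (ECI2), an isomerase for unsaturated acyl chains, was at 10.4 ± 3.67 and 26.4 ± 12.0 CPM (adjusted p = 0.0121). Another 3 members, ACADM, HADHA and ETFA, had adjusted p-values under 0.05 and folds under 2, all higher without serum.

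**Figure D3:**
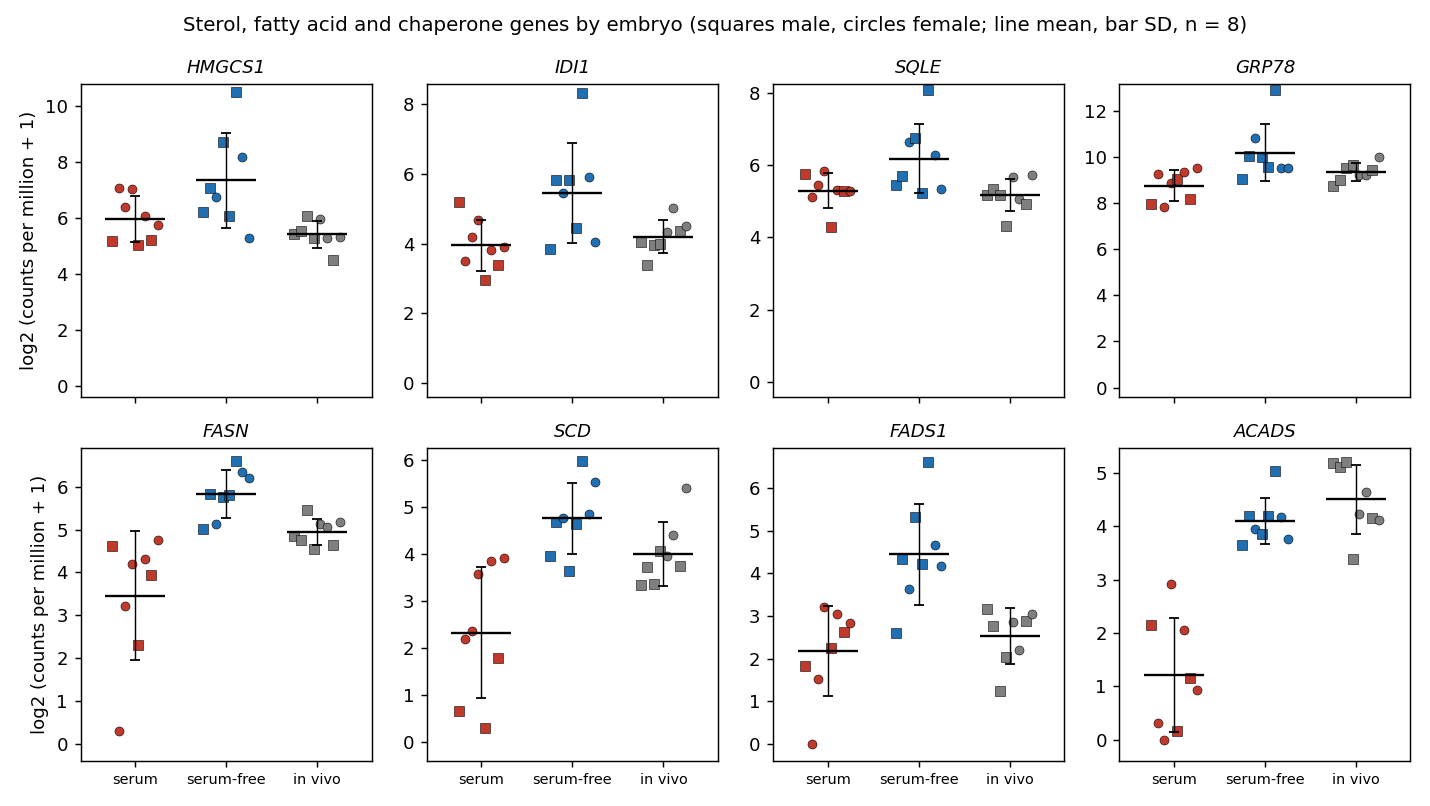
Expression of sterol, fatty acid and chaperone genes as log2(CPM + 1) (vertical axis) in each serum, serum-free and in vivo embryo, with squares for males, circles for females, a line at the mean and a bar of 1 SD (n = 8). Embryo C7 is the highest serum-free embryo for every gene shown, and all serum-free embryos lie above all serum embryos for FASN and ACADS.

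Embryo C7 was also the highest for genes of protein folding in the endoplasmic reticulum. Of 21 matched heat shock and unfolded protein response genes, 20 were tested. Of these, 6 were called higher without serum, where 5.36% of all genes were, and 0 higher with serum. The chaperone GRP78 (HSPA5) had a low, median and high of 225, 502 and 730 CPM with serum and 528, 892 and 7760 CPM without, a log2 fold change of 1.97 ± 0.51 (adjusted p = 0.0162). C7 was at 7760 CPM and the next serum-free embryo, C3, at 1820 CPM. HSP90B1 was at 3116 CPM in C7 and at most 613 CPM in the other serum-free embryos, and the disulfide isomerase ERP70 (PDIA4) at 798 CPM in C7 and at most 122 CPM in the others. XBP1, the transcription factor of this response, had medians of 22.8 and 88.8 CPM (adjusted p = 0.0205), and HERPUD1 of 14 and 38.5 CPM (adjusted p = 0.034). The cytosolic HSP90AB1 was at 35.1 ± 14.3 and 76.8 ± 15.4 CPM (adjusted p = 0.00793). Without C7, 2 of the list were called, GRP78 and HSP90AB1, and without B2 and C7 together 1, GRP78.

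Central metabolism held calls in both directions. Over all genes tested, 8.91% were called. Of 23 tested citric acid cycle and pyruvate dehydrogenase genes, SUCLG2, a subunit of succinyl-CoA synthetase, was higher without serum at 79.8 ± 41.2 against 293 ± 100 CPM (log2 fold change 1.90 ± 0.33, adjusted p = 0.00282). The mitochondrial isocitrate dehydrogenase IDH2 was higher with serum at 61.0 ± 33.9 against 25.8 ± 10.3 CPM (-1.22 ± 0.34, adjusted p = 0.0224). IDH2 was not called without B2. With no limit on the fold, 7 of the 23 had an adjusted p under 0.05 and were higher without serum, and 1 higher with serum. Over all genes tested this share was 16.3%. Of 14 tested glycolysis and lactate genes, the hexokinase HK1 was called higher without serum (1.25 ± 0.31, adjusted p = 0.0136) and the aldolase ALDOC higher with serum (-1.25 ± 0.28, adjusted p = 0.00901), the latter with no overlap. The lactate dehydrogenase subunit LDHB, at 630 ± 195 and 1149 ± 240 CPM, had no overlap and an adjusted p of 0.00842 with a fold of 1.85. Of the 13 mitochondrially encoded genes tested, 0 were called.

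Serine and one-carbon genes varied between serum embryos. Over all genes tested, 8.91% were called. Of 14 tested enzymes of serine, glycine and folate metabolism, 0 were called higher without serum, and GLDC, the decarboxylase of the glycine cleavage system, was higher with serum (-1.54 ± 0.46, adjusted p = 0.03). GLDC was between 70.6 and 366 CPM with serum and between 4.53 and 138 CPM without, and was not called without B3 or without B5 (adjusted p up to 0.0649). PHGDH, the first enzyme of serine synthesis, was between 0.906 and 278 CPM with serum and between 57.7 and 189 CPM without. Serum embryo B8 was at 278 CPM and the other 7 serum embryos were at most 39.7 CPM, below all serum-free embryos. Over all embryos PHGDH was not called (log2 fold change 1.28 ± 0.69, adjusted p = 0.205). PSAT1, the next enzyme, had the same embryo B8 highest at 384 CPM (log2 fold change 1.56 ± 0.66, adjusted p = 0.108), and the mitochondrial folate enzyme MTHFD2 had an adjusted p of 0.0513. Of 12 tested genes of the ATF4 list (amino acid stress targets), CTH, an enzyme of cysteine synthesis, was called, higher without serum, in 3 of the 16 fits with 1 embryo left out. PHGDH, PSAT1 and CTH passed the count limit only through the serum-free embryos, so their direction follows from the limit.

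Antioxidant genes went both ways. Of 15 tested, GSTP1, TXN, PRDX1 and PRDX6 were called higher without serum, where 5.36% of all genes were. Their log2 fold changes were between 1.06 and 1.35. The glutathione transferases GSTM3 and MGST1 were called higher with serum, where 3.55% of all genes were. Both passed the count limit only through the serum embryos, so their direction follows from the limit. PRDX6, a peroxidase of phospholipids, was at 234 ± 123 and 587 ± 121 CPM (adjusted p = 0.00704). GSTM3 had a low, median and high of 8.86, 20.6 and 327 CPM with serum and 0, 3.96 and 13.0 CPM without, and B2 was at 327 CPM. Its log2 fold change was -3.67 ± 0.80 (adjusted p = 0.00833), and -2.40 without B2 and C7, and in vivo embryos were at most at 1.99 CPM. Without B2 and C7 together, 1 of the list was called higher without serum, PRDX6. Selenoprotein genes were 8 tested of 16 matched. Of these, 0 were called higher without serum, the condition with added selenium, and 2 higher with serum, where 3.55% of all genes were. EPT1 (SELENOI), an enzyme of phospholipid synthesis, was between 11.9 and 41.2 CPM with serum and between 3.51 and 11.3 CPM without (-1.61 ± 0.35, adjusted p = 0.0081). EPT1 passed the count limit only through the serum embryos, so its direction follows from the limit. SELK (SELENOK) was at 1285 CPM in B2 and was called in 5 of the 16 fits with 1 embryo left out. Of 9 tested genes of iron uptake and storage, ACO1, the iron-sensing aconitase, was called higher without serum (1.15 ± 0.28, adjusted p = 0.0123). Of 3 tested genes of the insulin and IGF system 0 were called, and of 7 tested EGF, FGF and ERK feedback genes ERBB3 was called, in 4 of the 16 fits with 1 embryo left out. ERBB3 passed the count limit only through the serum-free embryos, so its direction follows from the limit.

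In the remaining lists, lysosomal genes were called higher without serum for 3 of 23 tested, where 5.36% of all genes were. CATD (cathepsin D) was at 66.2 ± 60.5 and 223 ± 94.2 CPM, and the lipid-degrading enzymes ARSA and ASAH1 had log2 fold changes of 2.78 ± 0.68 and 2.64 ± 0.58. Interferon response genes were called for 2 of 6 tested, both higher without serum, where 5.36% of all genes were. IFNT, the interferon by which ruminant trophectoderm signals pregnancy, was between 0 and 5.82 CPM with serum and between 5.11 and 80.7 CPM without (3.05 ± 0.67, adjusted p = 0.00893). Interferon tau is a family of near-identical genes, so its reads are uncertain. ARSA, ASAH1 and IFNT passed the count limit only through the serum-free embryos, so their direction follows from the limit. IFITM3 was at 46.3 ± 23.4 and 140 ± 50.9 CPM with no overlap. The desmosomal gene PERP was also higher without serum with no overlap (1.33 ± 0.24, adjusted p = 0.00341). Of 10 tested matrix and mesenchymal genes, LAMA1 was called higher without serum and SNAI1, a repressor of epithelial genes, higher with serum, SNAI1 in 9 of the 16 fits. Over all genes tested, 8.91% were called. LAMA1 passed the count limit only through the serum-free embryos and SNAI1 only through the serum embryos, so their direction follows from the limit. The fibronectin gene FN1 was between 7.13 and 2759 CPM with serum and between 3117 and 5539 CPM without, with no overlap but an adjusted p of 0.0535.

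DNA repair genes were called for 0 of 30 tested and cell cycle genes for 1 of 29, the cyclin CCND2, higher without serum and called in 5 of the 16 fits with 1 embryo left out. The checkpoint kinase CHEK1 did not overlap between conditions, at 326 ± 75 CPM with serum and 166 ± 36.2 CPM without (adjusted p = 0.00394), with a fold of 1.94. The mitotic cyclin CCNB1 was at 919 ± 272 and 544 ± 97.8 CPM (adjusted p = 0.0127, fold 1.67). Of 12 tested genes of the inner cell mass and pluripotency, DNMT3B was called higher without serum (2.15 ± 0.51, adjusted p = 0.0115) and KLF4 higher with serum (-1.12 ± 0.29, adjusted p = 0.017), KLF4 not without B3 and, with a log2 fold change of -0.98, not without B2 and C7 together. POU5F1, NANOG and SOX2 were not called. DNMT3B and CCND2 passed the count limit only through the serum-free embryos, so their direction follows from the limit. Of all genes tested, 8.91% were called. Imprinted genes were called for 0 of 4 tested and hypoblast genes for 0 of 2 tested.

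Markers of other sources of RNA were mostly under the count limit. Over all genes tested, 8.91% were called. Of 20 matched cumulus and granulosa markers 1 was tested and not called, 4 were under 1 CPM in all 16 embryos, and their summed level was between 15.1 and 191 CPM with serum and between 44.5 and 135 CPM without. Of 13 matched blood and endothelial markers 2 were tested. Their summed level was between 6.46 and 71.1 CPM with serum and between 60.5 and 156 CPM without. PECAM1, an adhesion molecule of these cells, was between 0 and 56.6 CPM with serum, between 36.5 and 132 CPM without, and at 106 CPM in vivo. PECAM1 was called higher without serum, in 5 of the 16 fits with 1 embryo left out. Of 19 matched oocyte genes 2 were tested, and BTG4, a maternal gene that recruits the deadenylation machinery to oocyte mRNA, was called higher without serum. It was at 490 CPM in C1 and 242 CPM in C2 and between 6.14 and 81.6 CPM in the other serum-free embryos, against at most 71.1 CPM with serum and a mean of 4.70 CPM in vivo. BTG4 lost its call in 6 of the 16 fits with 1 embryo left out, among them those without C1 and without C2. PECAM1 and BTG4 passed the count limit only through the serum-free embryos, so their direction follows from the limit. The part of these RNAs in the other results was not tested.

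**Figure D4:**
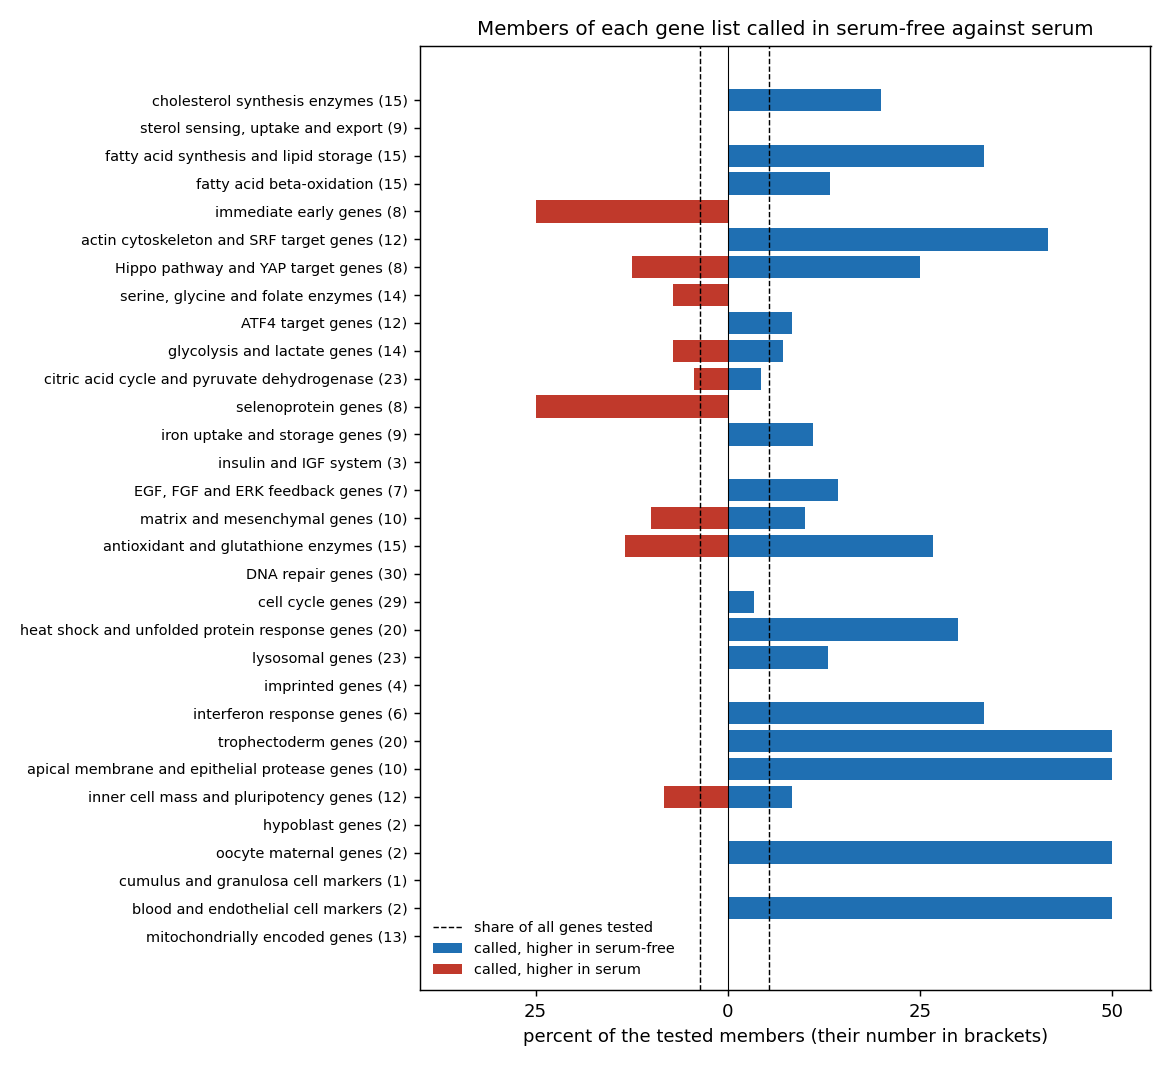
Share of the tested members of each gene list (number in brackets) called higher in serum-free embryos (blue, to the right) or higher in serum embryos (red, to the left), on a horizontal axis in percent, with dashed lines at the shares of all genes tested, 5.36% and 3.55%. Trophectoderm, apical membrane, actin, fatty acid, interferon and unfolded protein lists reach farthest to the right, as do the oocyte and blood lists, of 2 tested genes each. Immediate early and selenoprotein lists, of 8 tested genes each, reach farthest to the left.

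Among the genes higher with serum with a mean there of at least 10 CPM, those of largest change with no overlap were ZNF394, MT2, CT55, CCDC65, CBR3, PLEKHG4, FBXO5, TRPM6, LGALS8 and SMAP2. ZNF394, a zinc finger transcription factor, was between 75.5 and 475 CPM with serum (median 200) and between 4.18 and 40.1 CPM without (median 14.4). Its log2 fold change was -3.50 ± 0.49 (adjusted p = 0.00104), and in vivo embryos were between 7.99 and 141 CPM. Serum embryos B3 and B7 were the highest and B8 and B4 the lowest of the serum group. MT2, a metallothionein that binds zinc and copper, was at 38.5 ± 28.4 CPM with serum and 4.50 ± 3.1 CPM without (-3.07 ± 0.50, adjusted p = 0.00236). CT55, a cancer/testis gene, was at 95.4 ± 61.0 and 13.4 ± 8.92 CPM, and at 3.84 CPM in vivo. FBXO5 encodes EMI1, an inhibitor of the anaphase-promoting complex. It was between 110 and 430 CPM with serum and between 16.6 and 62.3 CPM without (-2.23 ± 0.32, adjusted p = 0.00104). The carbonyl reductase CBR3, the exchange factor PLEKHG4, the magnesium channel TRPM6, the galectin LGALS8 and the trafficking gene SMAP2 had log2 fold changes between -2.34 and -1.97. TRPM6 depended most on B2, which was at 316 CPM, and its log2 fold change was -1.28 without B2 and C7, still called.

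ZSCAN4 and ARGFX, both higher with serum, were chosen after their values were seen. ZSCAN4, a marker of embryonic genome activation, was between 37.4 and 523 CPM with serum (median 247) and between 7.02 and 81.3 CPM without (median 16.9), a log2 fold change of -3.20 ± 0.57 (adjusted p = 0.00333). B2, B5, B7 and B3 were between 374 and 523 CPM, and B1, B4, B6 and B8 between 37.4 and 120 CPM. ARGFX, a homeobox gene of the cleavage-stage embryo, was at 3154 CPM in B2 and between 152 and 590 CPM in the other serum embryos, against between 6.80 and 158 CPM without serum. Its log2 fold change was -3.00 ± 0.66 (adjusted p = 0.00849) and -1.67 without B2 and C7. Both genes were called in all 16 fits with 1 embryo left out. The same 4 serum embryos B2, B3, B5 and B7 were the lowest of the 16 for GATA3. This did not hold for KRT8, where B4 at 723 CPM was below B3 at 768 CPM. Nor did it hold for CLDN4, where B1 at 59.7 CPM was below B5 at 95.4 CPM.

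**Figure D5:**
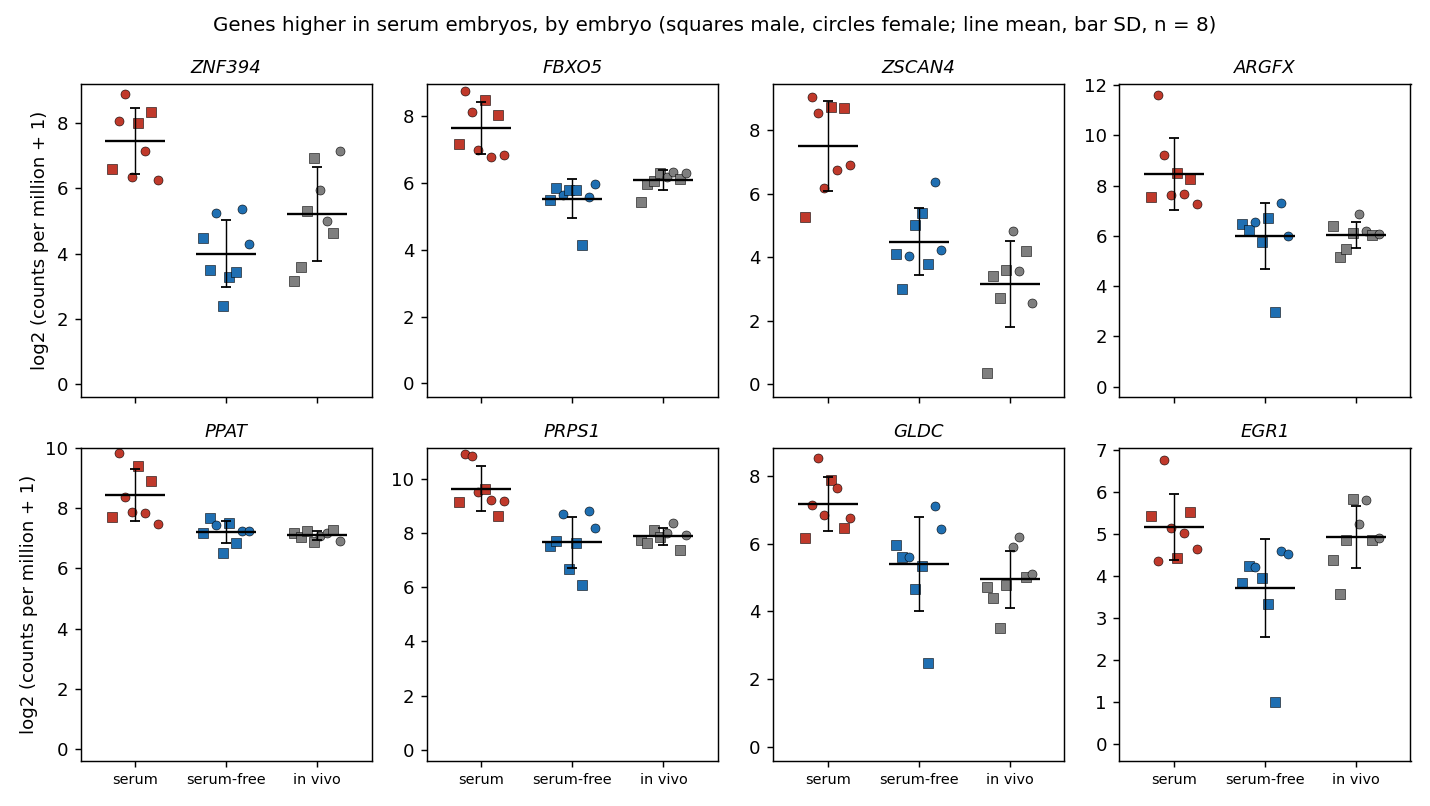
Expression of 8 genes called higher with serum as log2(CPM + 1) (vertical axis) in each serum, serum-free and in vivo embryo, with squares for males, circles for females, a line at the mean and a bar of 1 SD (n = 8). ZNF394 and FBXO5 do not overlap between the culture conditions, ARGFX has embryo B2 far above the rest of the serum group, and EGR1, GLDC and PPAT overlap.

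When male embryos were compared alone (3 with serum, 5 without), 451 of 7645 genes were called (5.9%), 307 higher without serum (4.02%) and 144 higher with serum (1.88%). With no limit on the fold, 515 genes had an adjusted p under 0.05 (6.74%), and 1916 an unadjusted p under 0.05 (25.1%). When female embryos were compared alone (5 with serum, 3 without), 0 of 8067 genes were called by the quasi-likelihood test. The lowest adjusted p was 0.0637, for the claudin CLDN1, and 961 genes (11.9%) had an unadjusted p under 0.05, while edgeR's exact test called 82 and DESeq2 114. The interaction of sex and culture was called for 0 of 8384 genes, with an unadjusted p under 0.05 for 305 of them (3.64%) and 7 calls by DESeq2, so that a difference between the sexes in their response was not shown. The male count ranged from 36 without B7 to 1072 without B1 and was 129 without B5, 296 without C1, 173 without C2, 205 without C4, 181 without C6 and 224 without C7. The female count was 14 without B2. On simulated data with 200 genes changed 4-fold, the test recovered 80% of them at the male group sizes, 62.5% at the female group sizes and 23.5% for the interaction. KRT8 had log2 fold changes of 4.61 ± 0.89 in male and 2.45 ± 0.93 in female embryos. For ZNF394 they were -4.35 ± 0.49 and -2.71 ± 0.67, for FASN 2.11 ± 0.56 and 2.12 ± 0.81, and for HMGCS1 3.69 ± 1.01 and 0.63 ± 0.55. PHGDH, which was not called over all embryos, was called in male embryos (3.52 ± 0.76, adjusted p = 0.0259) but not in female embryos, where it was 0.80 ± 0.93 and where B8 was included. In the male comparison PHGDH passed the count limit only through the serum-free embryos, so its direction there follows from the limit. Since more serum-free than serum embryos were male, sex was added as a covariate, and 594 genes were then called, 526 of them among the 640. With culture in the model, sex itself was called for 24 genes, of which 0 were among the 640.

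In vivo embryos were placed on the scale between the culture conditions for each called gene, with 0 at the serum mean and 1 at the serum-free mean of log2(CPM + 1). The in vivo mean lay nearer the serum-free mean for 567 of the 640 called genes (88.6%), and for 5090 of all 7181 genes tested (70.9%). The share was 88.6% both for genes higher without serum (341 of 385) and for genes higher with serum (226 of 255). The median position was 0.926 over the called genes, and 264 of them lay beyond the serum-free mean, as did 3335 of all genes tested, whose median position was 0.937. KRT8 was at 1.05, GATA3 at 0.93, SFN at 1.03, FASN at 0.63 and ZNF394 at 0.65. LAMA1 at 0.01, IDI1 at 0.17, FADS1 at 0.16 and HMGCS1 at -0.39 lay nearer the serum mean. ERP70 at -2.26 lay beyond it, and its in vivo embryos, at most at 24.3 CPM, were all below the serum embryos, which started at 26.9 CPM.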

How the data were processed

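Single early blastocysts were lysed, and cDNA was made with the SMARTer ultra low input kit, which does not keep the strand, so that overlapping genes on opposite strands cannot be told apart. Reads were trimmed by the authors and aligned to the Bos taurus UMD 3.1 build with added imprinted genes, and the authors deposited raw counts of uniquely mapped exon fragments per gene and embryo, which were used as deposited. Reads of near-identical gene copies are lost or split by unique mapping. The labels gave each embryo's group and sex.

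Genes with at least 15 counts in every embryo of at least 1 group were tested by the quasi-likelihood F-test of edgeR 4.0.16 under R 4.3.3 (normalization by TMM, Benjamini-Hochberg adjustment over all genes tested) and called at an adjusted p under 0.05 and a fold of at least 2. The study used edgeR's exact test, which is an alternative here, as is DESeq2 1.42.0. CPM divide each count by the embryo's total count times its TMM factor, on the usual scale of 1e+06 counts. SE were taken from the F statistic. The scripts were tested on simulated data, on which 95.5% of 200 genes changed 4-fold were recovered in the comparison of all embryos. With 3253051 counts in the smallest library, 3 counts, the limit that a count of 0 allows, are at most 9.22e-05% of a library. This limit covers counting error only, and PCR copies are not independent molecules. SE and SD also hold the spread between embryos.

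Genes were named by rule: in each direction the 10 called genes of largest change whose groups did not overlap and whose higher group had a mean of at least 10 CPM, members of 33 gene lists, and PHGDH, HMGCS1, IDI1 and SFN. Some list members and 1 list are not reported here. Other named genes are marked as chosen after their values were seen. The members and lists were chosen with earlier results of these data known. Of 741 list names, 632 were matched by symbol, 16 through RefSeq and 8 by an older name. The labels do not say which embryos shared an in vitro run, so p-values measure the spread between these embryos.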

Additional observations from a re-analysis of the deposited data

Results flagged for a closer look

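In groups of 8 embryos, the gap between the highest or lowest embryo and its neighbour, divided by the range of log2(CPM + 1) in the group, was compared with Dixon's 95% limit for each named gene, and likewise for the total count and the number of genes detected. Of 266 such groups, 32 were past the limit (12%), where chance alone gives about 5%. The values below are this ratio.

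Serum-free embryo C7 was the highest of its group for KRT19 (0.584), CRIP1 (0.601), ACADS (0.605), PLLP (0.537), IDI1 (0.537), GRP78 (0.54), HERPUD1 (0.582), HSP90B1 (0.746), SELK (0.56) and RAB25 (0.532). It was the lowest for FBXO5 (0.731), EGR1 (0.648), ARGFX (0.64), EZH2 (0.603) and CCNB1 (0.631). Serum embryo B2 was the highest of its group for TRPM6 (0.541) and ARGFX (0.554), and the lowest for PRDX1 (0.529), DNMT3A (0.737), ANXA8 (0.62), S100A16 (0.593), DSP (0.551) and FN1 (0.65). These are also the embryos farthest from the mean of their group over all genes tested.

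Other embryos stood apart for single genes. B3 was the highest serum embryo for ALDOC (0.747) and the lowest for OCLN (0.539), and B5 the lowest for SQLE (0.541). C1 was the lowest serum-free embryo for HSP90AB1 (0.553), PGHS-2 (0.563) and SUCLG2 (0.557), C3 for LATS2 (0.544) and C8 for OCLN (0.732). B5 also had the highest total count of the serum embryos (0.641).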

How the results depend on the processing

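Among 5399 recomputed values, 0 log2 fold changes of named genes and 0 differences in genes detected changed direction. The other recomputed values were counts of called genes, for which a change of direction was not defined. Most named genes were chosen among called genes, and for some the direction follows from the count limit. The count of 640 called genes became 366 (218 higher without serum, 148 higher with serum) where 15 counts were required in every embryo of both groups, which leaves fewer genes to test, and 364 (224 and 140) without the farthest embryo of each group, an alternative chosen after seeing the data. Leaving out 1 embryo gave between 393 and 784 calls, of which between 202 (without C7) and 470 were higher without serum (250 without B7) and between 180 and 346 higher with serum. The exact test called 777, DESeq2 770 and the fit with sex 594. Among male embryos the exact test called 755 and DESeq2 850, and leaving out 1 embryo gave between 36 and 1072. Among female embryos the count of 0 became 82 with the exact test, 114 with DESeq2, 6 with 1 count in any embryo, 2 with thinned counts, 12 in the fit over all embryos, and between 0 and 14 with 1 embryo left out. The interaction was called for 7 genes by DESeq2 and for between 0 and 1 with 1 embryo left out. The causes were not tested. Genes detected per embryo did not pass the test in any alternative.

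With the replicate number as a block, over the 7 numbers that both groups share, 29 genes were called (21 and 8), against 432 (264 and 168) in the same embryos without the block, a fit added after seeing the data. The numbers do not pair the embryos: correlations of same-numbered deviations were between -0.12 and 0.0364, and 0 serum embryos correlated best with their own number. Of 121 called genes chosen by the naming rules or after their values were seen, 82 were called in each of the 16 fits without 1 embryo, 83 without B2 and C7 together, and 107 with sex as a covariate. Among those not called without B2 and C7 were HMGCS1, IDI1, SQLE, ACLY, SCD, CALD1, FLNA, MYL6, TEAD3, LATS2, DUSP1, XBP1, HERPUD1, HSP90B1, HSP90AB1, ERP70, GSTP1, TXN, PRDX1, MGST1, SELK, IDH2, KLF4, CTH, CCND2, ERBB3, PECAM1, SNAI1, SPINT2, HAL, PCCB, BCKDHB, KITLG, ID2, GART, UCK2 and ANXA3.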

Other observations

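Further genes were chosen after their values were seen. Many passed the count limit only through the condition in which they were higher, so their direction follows from the limit. Among them, CLDN1, DPEP1, PLS1, RAB25, DSP, GMPS, BCAT1, PCCA, BCKDHB and DNMT3A were higher without serum. SDS, TDH, HAL, KITLG, BMP4, ID2, TXNIP and SETDB2, also among them, were higher with serum. Claudin 1 (CLDN1), a tight junction protein, was at most 0.305 CPM in serum embryos and between 5.60 and 15.1 CPM in serum-free embryos, with no overlap (log2 fold change 6.60 ± 0.54, adjusted p = 9.34e-07 by edgeR's quasi-likelihood test), a fitted value that depends on the near absence of counts with serum. The peptidase DPEP1, the brush border bundling protein PLS1 and the recycling endosome gene RAB25 were also higher without serum, with log2 fold changes of 5.51, 3.96 and 2.95. The desmosomal genes DSP and JUP had log2 fold changes of 1.67 and 1.32, and DSP was called in 12 of the 16 fits with 1 embryo left out, not without C7 (adjusted p = 0.0751 by edgeR's quasi-likelihood test). Of 8 tested annexins 5 were called higher without serum, as were 4 of 7 tested S100 genes, and 0 of either higher with serum, where 5.36% and 3.55% of all genes were called. Only 4 of the 8 annexins and 4 of the 7 S100 genes passed the count limit in both conditions, and ANXA3, ANXA8 and S100A14 were not called without C7 (adjusted p = 0.0574, 0.0548 and 0.0619 by edgeR's quasi-likelihood test). With 1 embryo left out, ANXA3 was called in 14, ANXA8 in 15 and S100A14 in 12 of the 16 fits. S100A5 was at 45.2 ± 19.1 CPM with serum and 227 ± 80.0 CPM without. Of 88 cytosolic ribosomal protein genes tested 0 were called, and 0 of 45 proteasome genes.

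Genes of purine synthesis and salvage were higher with serum for PRPS1, PPAT, GART, IMPDH1 and PNP. PRPS1, which makes the ribose donor of nucleotides, was at 921 ± 595 CPM with serum and 238 ± 137 CPM without (-1.93 ± 0.40, adjusted p = 0.0065 by edgeR's quasi-likelihood test). PPAT, the committed enzyme of the pathway, was at 408 ± 268 and 151 ± 36.7 CPM. GMPS, which makes GMP, was higher without serum (2.52 ± 0.67). The pyrimidine salvage kinase UCK2 was higher with serum (-1.19 ± 0.34), and like GART was not called without B2.

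Genes of amino acid breakdown were called in both directions. SDS, serine dehydratase, was between 8.86 and 2380 CPM with serum and between 0 and 36.1 CPM without (-5.52 ± 1.24, and -3.64 without B2 and C7). The threonine dehydrogenase TDH (-3.27 ± 0.74) and the histidine ammonia-lyase HAL (-2.35 ± 0.74) were also higher with serum, HAL in 8 of the 16 fits with 1 embryo left out. BCAT1, PCCA, PCCB and BCKDHB, of branched-chain amino acid and propionate breakdown, were higher without serum, with log2 fold changes between 1.02 and 2.53, PCCB in 8 and BCKDHB in 6 of these fits.

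Among chromatin genes, the DNA methyltransferase DNMT3A was at 81.5 ± 42.0 CPM with serum and 287 ± 136 CPM without, and the histone methyltransferases EZH2 (-1.53 ± 0.34) and SETDB2 (-1.52 ± 0.34) were higher with serum, with no overlap for the 3 genes. DNMT3A passed the count limit only through the serum-free embryos and SETDB2 only through the serum embryos, so their direction follows from the limit. Of 5 tested histone H2B features 4 were called higher with serum, where 3.55% of all genes were. Only 2 of the 5 passed the count limit in both conditions, and reads of this multigene family are uncertain. The signalling genes BMP4 (-2.23 ± 0.56), KITLG (-2.68 ± 0.74) and ID2 (-3.34 ± 0.87) and the thioredoxin inhibitor TXNIP (-1.71 ± 0.46) were higher with serum. All of these passed the count limit only through the serum embryos, so their direction follows from the limit. ID2 was at 794 CPM in B2 and was not called without it, and KITLG was not called without B2 and C7 together (adjusted p = 0.0676 by edgeR's quasi-likelihood test).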
